A study of Mus musculus with 12 samples.

Results

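The genes described here encode respiratory complexes II, III, IV and V of the mitochondrion, the mobile carrier cytochrome c, and factors that help assemble these enzymes. They were chosen by symbol from the table of gene counts: the Sdh genes of complex II, the Uqcr genes with Cyc1 and Cycs, every symbol starting with Cox and a digit, and every symbol starting with Atp5. This gave 62 of the 24421 entries of the table, namely 8 of complex II, 10 of complex III with cytochrome c, 27 of complex IV and 17 of complex V. The 17 are placed by symbol and include Atp5sl and Atp5s, which are not classed here as subunits. The messenger RNA came from the tibialis anterior, a muscle of the lower hindlimb, of 12 male mice aged 4 months. One group was 6 C57Bl/6 mice (WT), and the other was 6 mice of the mdx/mTR strain. The mdx allele disrupts Dmd, the dystrophin gene, in every cell and not in muscle alone. mTR denotes the mouse telomerase RNA gene, which the table lists as Terc.

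Oxidative phosphorylation passes electrons from food molecules to oxygen and uses the energy released to make ATP. Succinate dehydrogenase (complex II) feeds electrons from the citric acid cycle into ubiquinone, the cytochrome bc1 complex (complex III) hands them to cytochrome c, and cytochrome c oxidase (complex IV) passes them to oxygen. ATP synthase (complex V) turns the proton gradient built by the chain into ATP. Complex IV is unusual in having subunits with a form typical of heart and skeletal muscle and a form found in most tissues. The subunits encoded by mitochondrial DNA were not analysed here.

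Library totals ran from 36903560 to 40981012 counts in WT against 35136327 to 60330410 in mdx/mTR. Levels are given as CPM, counts relative to a common library size after TMM scaling (trimmed mean of M-values). An SD is over the 6 mice of each group. A count of 3 is the 95% upper limit for a gene with 0 counts, for counting error only, and corresponded to 0.046 to 0.0837 CPM. Dmd stood at 228 to 244 CPM in WT against 35.2 to 56.4 CPM in mdx/mTR, a log2 fold change of -2.34 ± 0.09 (SE, edgeR adjusted p = 8.3e-10). Terc was nearly absent, with 2 counts over the 12 libraries, so it checks no label. Markers of mature fast fibres summed to 164200 to 183400 CPM in WT against 124800 to 168700 in mdx/mTR, with 1 of 6 lower (Myh4). The edgeR p-values set the difference between the groups against the spread within the groups of these 12 samples. Part of that spread may be technical.

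Of the 62 genes, 59 had enough counts to be tested. The 3 untested ones were complex IV forms at or near the floor: Cox8c had 0 counts in every library, Cox7b2 had 0 to 3 and Cox6b2 had 3 to 19. In the edgeR quasi-likelihood test 24 of the 59 (40.7%) passed an adjusted p of 0.05, 20 of them lower in mdx/mTR and 4 higher. Among all 13937 genes tested, 48.3% passed, 23.4% as lower and 25.0% as higher. The share of respiratory genes that changed was therefore not above the background, and the 20 to 4 split stood beside a nearly even one among all genes. The median log2 fold change was -0.14 over the 59 genes and 0.01 over all genes tested. The sizes were small, from -0.55 to 0.42, with 44 values below 0 and 15 above. In 12 of the 59 genes every mdx/mTR mouse lay below every WT mouse, and in 0 every one lay above; over all genes 12.6% lay apart in each direction. The direction of the smaller changes depended on library scaling. With library totals alone, without TMM, 18 of the 59 values changed sign, 6 genes were lower and 15 higher. Under those totals 11.2% of all genes tested were lower and 40.2% higher.

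**Figure D1:**
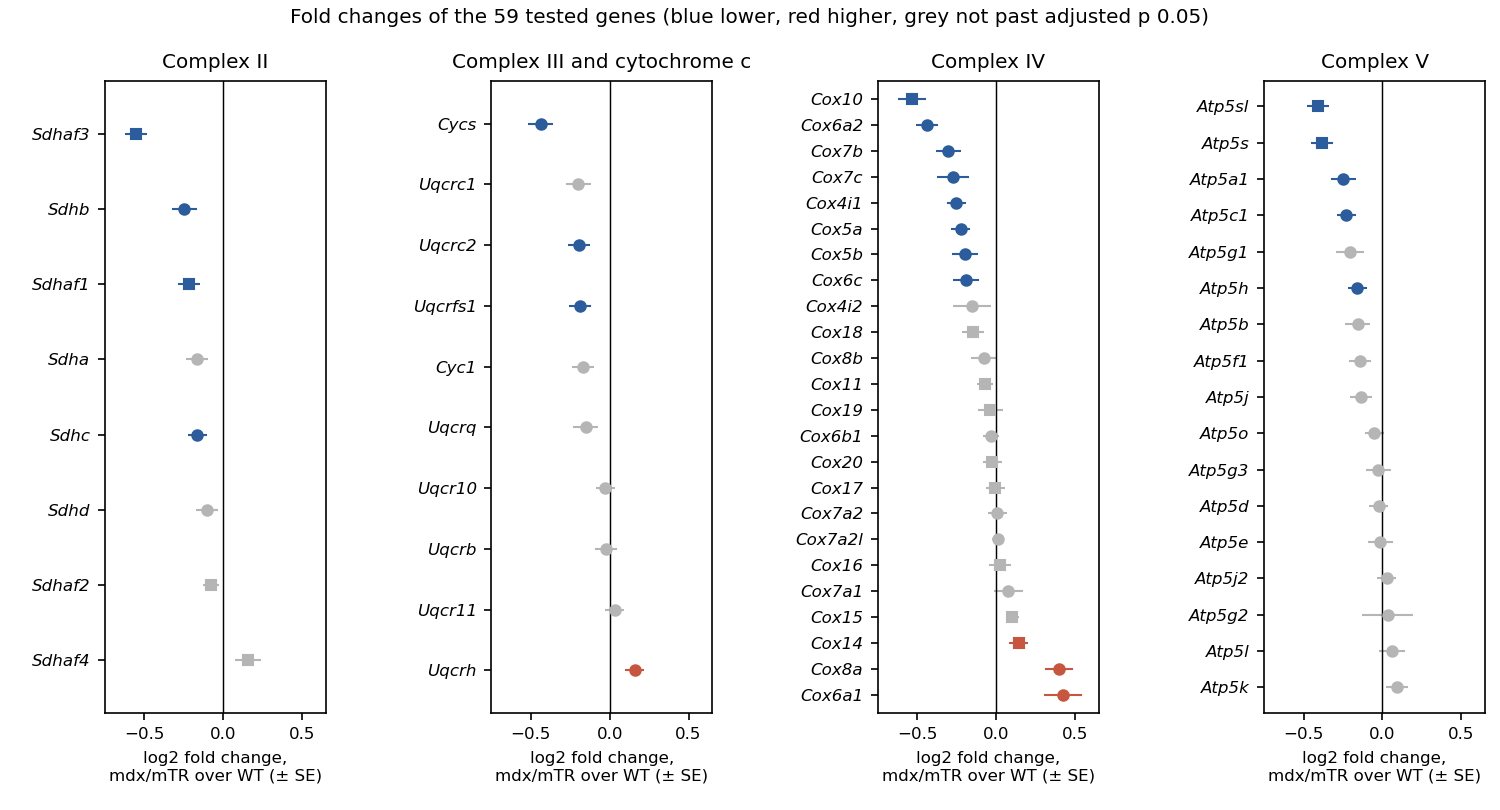
Log2 fold change, mdx/mTR relative to WT (horizontal axis, with SE), for the 59 tested genes, 1 panel per complex; circles are subunits and cytochrome c, squares are assembly factors and the 2 other Atp5 genes. With TMM scaling 20 genes were lower (blue) and 4 higher (red), beside 23.4% and 25.0% of all genes. With library totals alone 6 were lower and 15 higher, beside 11.2% and 40.2% of all genes. Under those totals 18 signs turned, none of them among the 24.

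In complex II, 4 of 8 genes fell and 0 rose with TMM scaling, beside 23.4% lower and 25.0% higher of all genes. With library totals alone 1 was lower (Sdhaf3) and 1 higher (Sdhaf4), beside 11.2% lower and 40.2% higher of all genes. The 4 that fell were the assembly factors Sdhaf3 and Sdhaf1, which serve the maturation of the iron-sulphur subunit, the iron-sulphur subunit Sdhb itself, and the membrane anchor Sdhc. Sdhaf3 had the largest fall of all 59 genes. Its lowest, median and highest levels were 7.81, 8.45 and 9.27 CPM in WT against 5.17, 5.67 and 6.23 CPM in mdx/mTR. No mouse of the 2 groups overlapped. Its log2 fold change was -0.55 ± 0.07 (SE, edgeR adjusted p = 2.7e-05).

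Sdhb ran from 494 to 626 CPM in WT (median 529) against 363 to 522 in mdx/mTR (median 467). The ranges overlapped, and the log2 fold change was -0.25 ± 0.08 (edgeR adjusted p = 0.0211). Sdhaf1 ran from 12.6 to 14.1 CPM in WT (median 13.6) against 10.5 to 13.7 in mdx/mTR (median 11.3), with a log2 fold change of -0.22 ± 0.07 (edgeR adjusted p = 0.0201), a call lost in 4 of 24 alternatives. Of the 50-base stretches of its transcript 69.0% also occur in another gene, so its counts are uncertain. Sdhc differed by -0.16 on the log2 scale (edgeR adjusted p = 0.0381), and the call was lost in 14 of 24 alternatives; that of Sdhb was lost in 1, library totals alone. Sdha, the flavoprotein that oxidises succinate, ran from 1355 to 1578 CPM in WT against 1063 to 1448 in mdx/mTR and did not pass (log2 fold change -0.17 ± 0.07, edgeR adjusted p = 0.0742). The other anchor, Sdhd, had a value of -0.11 and also missed the threshold.

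In complex III with cytochrome c, 3 of 10 genes fell and 1 rose with TMM scaling, beside 23.4% lower and 25.0% higher of all genes. With library totals alone 1 was lower (Cycs) and 2 were higher (Uqcr11 and Uqcrh), beside 11.2% lower and 40.2% higher of all genes. Cycs, the cytochrome c of body tissues that carries electrons to complex IV, ranged from 12.8 to 14.6 CPM in WT (median 13.7) against 8.61 to 11.8 CPM in mdx/mTR (median 10.2). The groups did not overlap. The log2 fold change was -0.44 ± 0.08 (edgeR adjusted p = 4.2e-04). Cycs shares 28.5% of its 50-base stretches with other genes, which leaves its absolute level uncertain.

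The core protein Uqcrc2 ran from 658 to 779 CPM in WT (median 679) against 492 to 651 in mdx/mTR (median 633). Every mdx/mTR mouse was below every WT mouse, yet the edgeR adjusted p was 0.040 at a log2 fold change of -0.20 ± 0.07. It missed the threshold in 11 of 24 alternatives, among them without WT replicate 2, the highest library. Uqcrfs1, the Rieske iron-sulphur protein, ran from 521 to 615 CPM in WT against 409 to 525 in mdx/mTR, with a log2 fold change of -0.19 ± 0.07 (edgeR adjusted p = 0.028), a call lost in 6 of 24 alternatives. The other core protein, Uqcrc1, and cytochrome c1, Cyc1, had log2 values of -0.20 ± 0.08 and -0.17 ± 0.07 and fell short (edgeR adjusted p = 0.0539 and 0.0558).

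Uqcrh, the hinge protein that touches cytochrome c1, rose; it is named after its values were seen. It ran from 205 to 236 CPM in WT (median 218) against 211 to 258 in mdx/mTR (median 245). The ranges overlapped at their ends, and the log2 fold change was 0.16 ± 0.06 (edgeR adjusted p = 0.0298). The call was lost in 11 of 24 alternatives. The other 4 Uqcr genes had log2 values between -0.15 (Uqcrq) and 0.03 (Uqcr11) and did not pass.

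Complex IV held the widest range of changes among its subunits. Of 15 tested subunits 7 fell and 2 rose with TMM scaling, beside 23.4% lower and 25.0% higher of all genes, and the median log2 fold change was -0.15. With library totals alone 1 was lower (Cox6a2) and 5 were higher (Cox6a1, Cox8a, Cox7a1, Cox7a2 and Cox7a2l). Neither count was above the all-gene shares under those totals, 11.2% lower and 40.2% higher. The largest fall was in Cox6a2, the heart and muscle form of subunit 6a. It ran from 671 to 802 CPM in WT (median 744) against 463 to 610 CPM in mdx/mTR (median 542). The groups did not overlap, and the log2 fold change was -0.44 ± 0.07 (edgeR adjusted p = 2.9e-04). Per kilobase of transcript Cox6a2 stood at 1079 CPM in WT against 797 CPM in mdx/mTR.

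Its partner Cox6a1, the form of subunit 6a found in most tissues, rose. It ran from 14.7 to 16.8 CPM in WT (median 15.3) against 16.1 to 29.1 CPM in mdx/mTR (median 19.6), so 1 mdx/mTR mouse fell inside the WT range. The log2 fold change was 0.42 ± 0.12 (edgeR adjusted p = 0.00973). Cox8a, the widely expressed form of subunit 8, also rose. Its range was 17.3 to 20.5 CPM in WT (median 19.0) against 19.5 to 29.5 CPM in mdx/mTR (median 25.4), and its log2 fold change was 0.40 ± 0.09 (edgeR adjusted p = 0.00345). Cox6a1 and Cox8a were highest in mdx/mTR replicate 5, and without that mouse their log2 values were 0.30 and 0.34, both still past the threshold.

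The other 6 subunits that fell were Cox7b, Cox7c, Cox4i1, Cox5a, Cox5b and Cox6c. Cox4i1, the common form of subunit 4, stood at 547 to 630 CPM in WT (median 594) against 427 to 521 in mdx/mTR (median 510), without overlap. Its log2 fold change was -0.25 ± 0.06 (edgeR adjusted p = 0.00281). Cox5a had 464 to 507 CPM in WT against 353 to 447 CPM in mdx/mTR, also apart (-0.22 ± 0.06, edgeR adjusted p = 0.00652). Cox7b had the largest change of these, -0.30 ± 0.08 (edgeR adjusted p = 0.00505). Cox7c, Cox5b and Cox6c had values of -0.27, -0.20 and -0.19, and their calls were lost in 11, 15 and 14 of 24 alternatives. The calls of Cox7b, Cox4i1 and Cox5a were lost in 1 each, library totals alone, under which none of the 6 passed. Cox7c and Cox5a share 53.0% and 32.0% of their 50-base stretches with other genes, which leaves their levels uncertain.

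**Figure D2:**
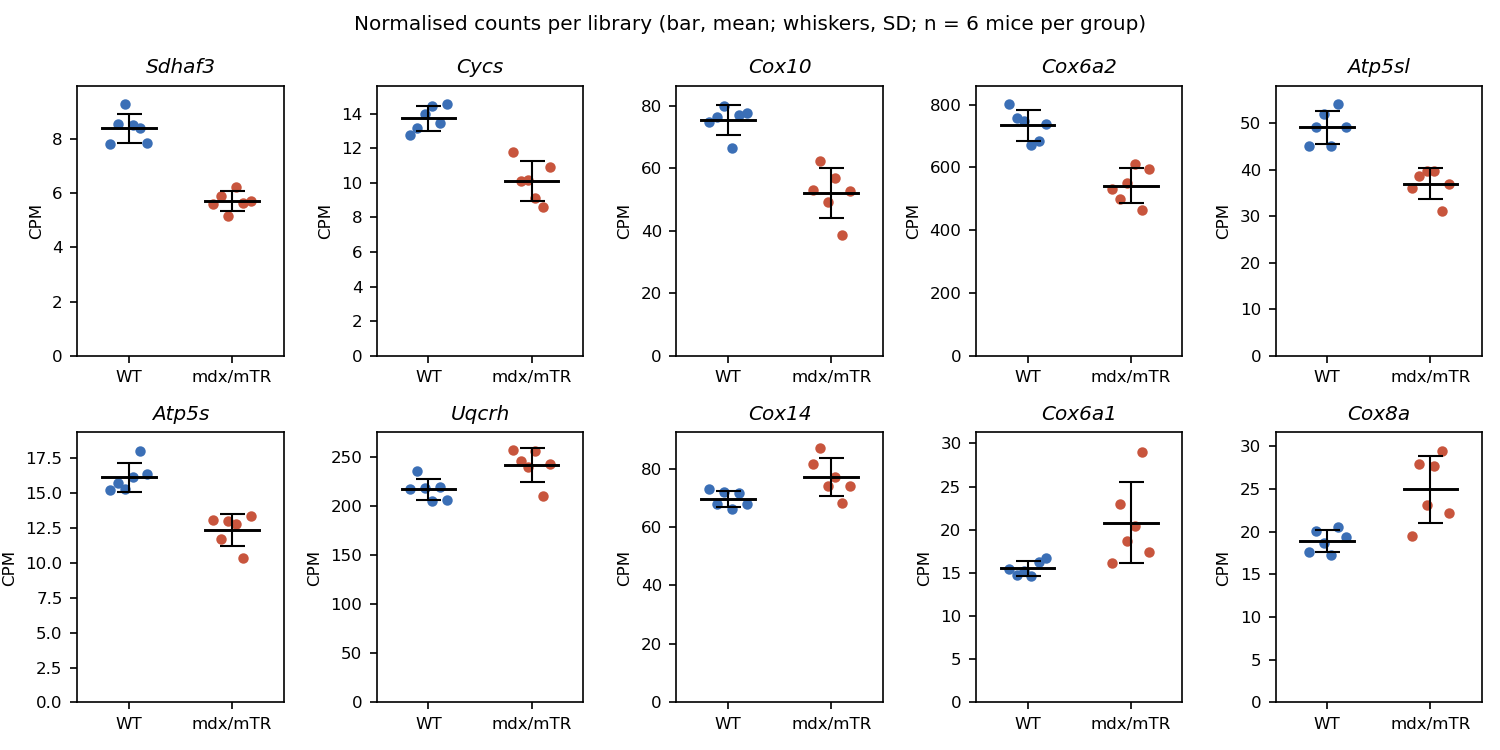
Normalised level (CPM, vertical axis from 0) in each mouse for 10 genes, with the group mean (bar) and SD (whiskers), n = 6 per group; these genes were chosen after their values were seen. The first 6 genes are lower in all 6 mdx/mTR mice than in any WT mouse, while Uqcrh, Cox14, Cox6a1 and Cox8a overlap.

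Because both genes of an isoform pair are counted in 1 library, the ratio of the muscle form to the common form does not depend on library scaling. Log2 ratios were compared for 4 pairs by a two-sided exact permutation test over the 12 libraries, whose smallest possible p is 0.00216, with adjustment over the 4 pairs. The log2 ratio of Cox6a2 to Cox6a1 counts was 5.56 ± 0.12 in WT (5.39 to 5.70) against 4.72 ± 0.42 in mdx/mTR (3.99 to 5.09; SD, n = 6 per group). The 2 groups did not overlap. The difference was -0.84 (exact permutation p = 0.00216, adjusted p = 0.00866), so the ratio in mdx/mTR was 0.56 of that in WT. Cox6a2 gave 97.7% to 98.1% of the reads of the pair in WT against 94.1% to 97.2% in mdx/mTR.

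The log2 ratio of Cox8b, the muscle form of subunit 8, to Cox8a was 3.82 ± 0.14 in WT (3.69 to 4.08) against 3.34 ± 0.37 in mdx/mTR (2.76 to 3.74). These groups overlapped, and the difference was -0.47 (exact permutation p = 0.00433, adjusted p = 0.00866). Cox8b itself ran from 232 to 299 CPM in WT against 199 to 283 CPM in mdx/mTR (log2 fold change -0.08 ± 0.08, edgeR adjusted p = 0.453). The ratio of Cox7a1 to Cox7a2, the muscle and common forms of subunit 7a, differed by 0.06 (exact permutation p = 0.329, adjusted p = 0.439). Cox7a1 ran from 246 to 300 CPM in WT against 203 to 324 in mdx/mTR, with a log2 fold change of 0.08 ± 0.09. Cox7a2 ran from 106 to 128 CPM in WT against 99.3 to 132 in mdx/mTR, with a log2 fold change of 0.01 ± 0.06. Cox4i2, a form best known from lung, was near 2 CPM, and its ratio to Cox4i1 differed by 0.11 (exact permutation p = 0.439, adjusted p = 0.439).

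**Figure D3:**
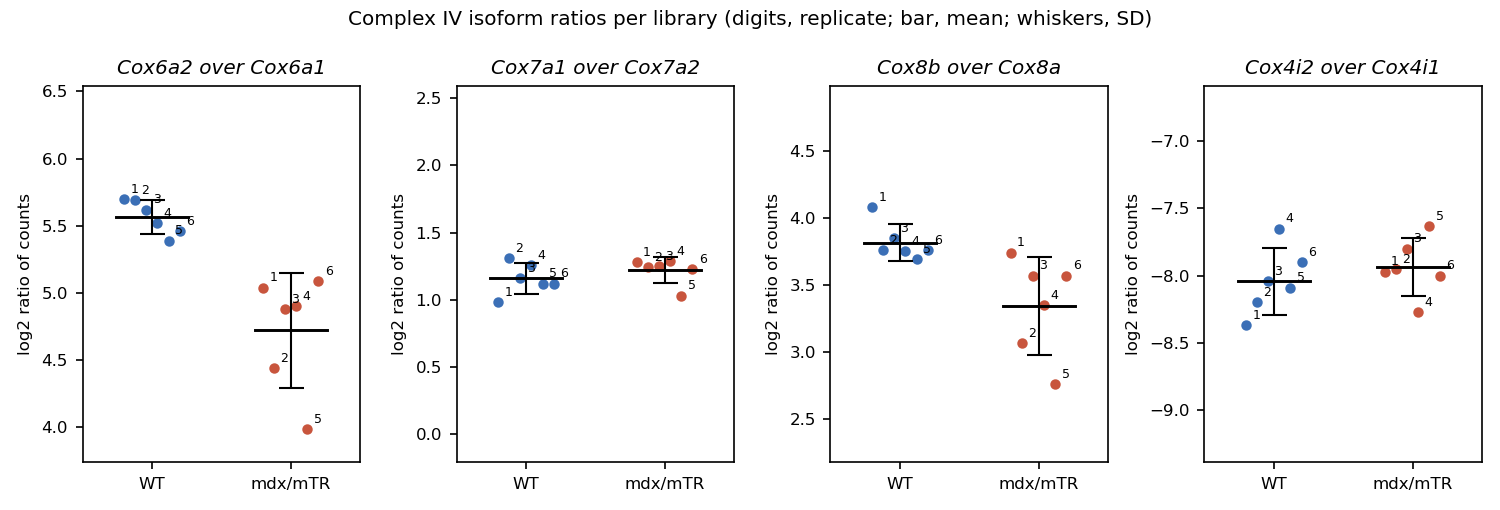
Log2 ratio of counts of each isoform pair (vertical axis) in each mouse, with the replicate number, the group mean (bar) and SD (whiskers), n = 6 per group. The Cox6a2 to Cox6a1 ratio runs from 3.99 to 5.09 in mdx/mTR, below the WT range of 5.39 to 5.70, and replicate 5 is the lowest in both that pair and Cox8b to Cox8a.

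Several lists of cell and fibre markers also differed between the groups, and their part in the result was not tested. Macrophage markers were higher in 7 of 7 genes, with summed levels of 79.8 to 136 CPM in WT against 234 to 659 CPM in mdx/mTR. Fibro-adipogenic markers were higher in 3 of 4 genes (525 to 832 against 1060 to 1877 CPM), and satellite cell and myoblast markers in 3 of 4 (23.4 to 33.7 against 38.6 to 79.2 CPM). Ly6a of the former and Pax7 of the latter had log2 fold changes of 0.01 and 0.13 and did not pass (edgeR adjusted p = 0.966 and 0.436). Regenerating fibre markers were higher in 3 of 3 genes (12.1 to 13.5 against 61.8 to 449 CPM). Slow fibre markers were higher in 4 of 5 (13.0 to 29.6 against 26.2 to 166 CPM). The fifth, Myl2, had a log2 fold change of -0.60 and did not pass (edgeR adjusted p = 0.351). Tnni1 gave 110 of the 166 CPM of the slow list in mdx/mTR replicate 5. Myh7 was highest in mdx/mTR replicate 1, at 29.9 CPM against 10.7 in replicate 5. In the sums of these 5 lists mdx/mTR replicate 5 was the highest, the same mouse with the lowest Cox6a2 to Cox6a1 ratio. Without that mouse the difference in this log2 ratio was -0.69. None of these markers is at 0 in all libraries. Of the other lists, endothelial markers were lower in 2 of 4 genes and Schwann markers in 3 of 3. Pericyte and smooth muscle markers were lower in 2 of 3 with 1 higher, and adipocyte markers in 0 of 3 with 0 higher. In RNA of whole muscle, fewer fibres and less RNA per fibre cannot be told apart.

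The 250 bases before the start of the gene are shown for the 3 genes of complexes III and IV that rose and are in the RefSeq promoter table, and for Cox8b as the muscle form of the second pair. Positions are of build GRCm38.p6, all on the minus strand, and sequences read from 5′ to 3′ toward the gene. Capitals mark an exact match to a searched motif on either strand. Cox6a1 lies at chr5:115348959-115349208, Cox8a at chr19:7217617-7217866, Cox8b at chr7:140900447-140900696 and Uqcrh at chr4:116075071-116075320.
Cox6a1: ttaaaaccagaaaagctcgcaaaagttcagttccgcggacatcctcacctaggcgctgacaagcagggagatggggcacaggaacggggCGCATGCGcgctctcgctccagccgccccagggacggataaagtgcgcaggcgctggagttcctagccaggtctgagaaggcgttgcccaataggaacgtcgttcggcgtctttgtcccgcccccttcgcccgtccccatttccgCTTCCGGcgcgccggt
Cox8a: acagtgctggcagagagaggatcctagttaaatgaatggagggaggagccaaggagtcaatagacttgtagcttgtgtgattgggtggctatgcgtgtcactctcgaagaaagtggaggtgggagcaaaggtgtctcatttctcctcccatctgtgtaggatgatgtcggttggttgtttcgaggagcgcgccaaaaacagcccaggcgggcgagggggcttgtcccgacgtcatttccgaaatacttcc
Cox8b: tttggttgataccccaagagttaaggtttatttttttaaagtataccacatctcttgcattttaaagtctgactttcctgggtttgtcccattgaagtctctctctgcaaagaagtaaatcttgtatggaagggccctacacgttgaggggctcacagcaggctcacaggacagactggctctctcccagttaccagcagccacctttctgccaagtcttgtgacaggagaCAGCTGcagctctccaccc
Uqcrh: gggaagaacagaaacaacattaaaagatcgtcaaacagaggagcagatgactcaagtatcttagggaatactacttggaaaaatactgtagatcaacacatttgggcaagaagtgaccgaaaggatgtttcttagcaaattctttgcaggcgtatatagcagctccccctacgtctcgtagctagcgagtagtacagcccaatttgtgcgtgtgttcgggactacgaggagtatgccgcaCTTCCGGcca

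Of the 62 genes 49 were matched to that table. The letters CGCATGCG, the core of the site bound by NRF1, a factor known for respiratory genes, occurred before 6 of the 49 (12.2%), Cox6a1 and Cycs among them, and before 1.75% of all 27025 genes. The Cox6a1 match begins 161 bases before the start. CCGGAAG, the core of sites for ETS family factors, occurred in 14 of the 49 (28.6%) and in 7.83% of all genes; it begins 16 bases before the start in Cox6a1 and 10 bases before it in Uqcrh. CAGCTG, an E-box of the kind bound by muscle factors, occurred in 2 of 49 (4.08%) against 14.7%, and 1 of the 2 was Cox8b, 19 bases before its start. AAGATGGC, the YY1 site, was found in 3 of 49 (6.12%) against 1.83%. AAGGTCA of the ERR factors was found in 4.08% against 4.70%, and TATAAA in 6.12% against 14.3%. The MEF2 site was found in 0 of the 49 and in 0.592% of all genes. No searched site overlapped another in the 4 sequences shown. A match describes the letters and not a binding event. Because the motifs were chosen after the sequences were seen, these shares are a description and no test of enrichment.

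Of the 9 assembly factors of complex IV, 1 fell and 1 rose with TMM scaling, beside 23.4% lower and 25.0% higher of all genes. With library totals alone 1 was lower (Cox10) and 4 were higher (Cox14, Cox15, Cox16 and Cox17). Under those totals 11.2% of all genes were lower and 40.2% higher. Cox10, which attaches the farnesyl tail to heme on the way to heme A, ran from 66.5 to 80.1 CPM in WT (median 76.8) against 38.8 to 62.4 CPM in mdx/mTR (median 53.0). No mouse of the 2 groups overlapped, and the log2 fold change was -0.53 ± 0.09 (edgeR adjusted p = 3.5e-04). Cox15, which completes heme A, had a value of 0.10 ± 0.04 and did not pass (edgeR adjusted p = 0.0668). Cox14, a factor for the synthesis of the first subunit, rose by 0.14 ± 0.06 on the log2 scale (66.1 to 72.9 CPM in WT, 68.3 to 86.9 in mdx/mTR; edgeR adjusted p = 0.0454), and the call was lost in 16 of 24 alternatives. The copper factors Cox11, Cox17 and Cox19 had values between -0.07 and -0.01. Counts of Cox16, Cox20 and Cox11 are uncertain, because they share 88.7%, 68.2% and 50.5% of their 50-base stretches with other genes.

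In complex V, 5 of 17 genes fell and 0 rose with TMM scaling, beside 23.4% lower and 25.0% higher of all genes. With library totals alone 2 were lower (Atp5sl and Atp5s) and 3 higher (Atp5j2, Atp5l and Atp5k), beside 11.2% lower and 40.2% higher of all genes. The 2 largest of the 5 falls were in Atp5sl and Atp5s, which RefSeq lists as Dmac2 and Dmac2l. They are counted here by their Atp5 symbols only and are not classed as subunits of the enzyme. Atp5sl ran from 45.1 to 54.1 CPM in WT (median 49.2) against 31.1 to 39.8 CPM in mdx/mTR (median 37.8), with a log2 fold change of -0.41 ± 0.07 (edgeR adjusted p = 2.5e-04). Atp5s, coupling factor B of the enzyme, ran from 15.3 to 18.1 CPM in WT (median 15.9) against 10.4 to 13.3 CPM in mdx/mTR (median 12.9), with a value of -0.38 ± 0.07 (edgeR adjusted p = 5.8e-04). The groups lay apart in both genes.

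Among the 15 subunits of complex V, 3 (20.0%) fell with TMM scaling, not above the all-gene share of 23.4%. With library totals alone 0 were lower, beside 11.2% of all genes. The median log2 fold change was -0.05. Atp5a1, the alpha subunit of the catalytic head, ran from 3228 to 3902 CPM in WT (median 3474) against 2441 to 3179 CPM in mdx/mTR (median 3048). Its log2 fold change was -0.25 ± 0.08 (edgeR adjusted p = 0.0151), and the groups lay apart. The gamma subunit of the rotor, Atp5c1, gave -0.23 ± 0.06 (edgeR adjusted p = 0.00988), and Atp5h, the d subunit of the stalk, -0.16 (edgeR adjusted p = 0.0432). The call of Atp5h was lost in 15 of 24 alternatives, and those of Atp5a1 and Atp5c1 in 1 each, library totals alone. Atp5b, the catalytic beta subunit, ran from 3946 to 4639 CPM in WT against 3038 to 4025 in mdx/mTR, with a log2 value of -0.16 ± 0.08 that did not pass (edgeR adjusted p = 0.113). Per kilobase Atp5b was the highest of the 62 genes in both groups, at 2156 CPM in WT against 1932 CPM in mdx/mTR, with Atp5a1 next at 1417 and 1194 CPM. The counts of Atp5g2, Atp5l and Atp5h are uncertain, as 87.4%, 84.8% and 47.9% of their 50-base stretches occur in other genes.

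Summed over all 62 genes, counts came to 21570 ± 1204 CPM in WT against 19230 ± 1729 CPM in mdx/mTR, which was 89.2% of the WT level. As a share of all library counts, however, they were 2.05% ± 0.135 in WT against 2.03% ± 0.144 in mdx/mTR, or 99.1% of the WT share. Subunits of complex II stood at 88.6% of WT by CPM, of complex III at 90.2%, of complex IV at 87.1% and of complex V at 89.5%. By share of library counts these were 98.3%, 100.2%, 96.8% and 99.4%. WT replicate 2 was the highest WT library for all 4 complexes and mdx/mTR replicate 5 the lowest of its group on both scales.

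**Figure D4:**
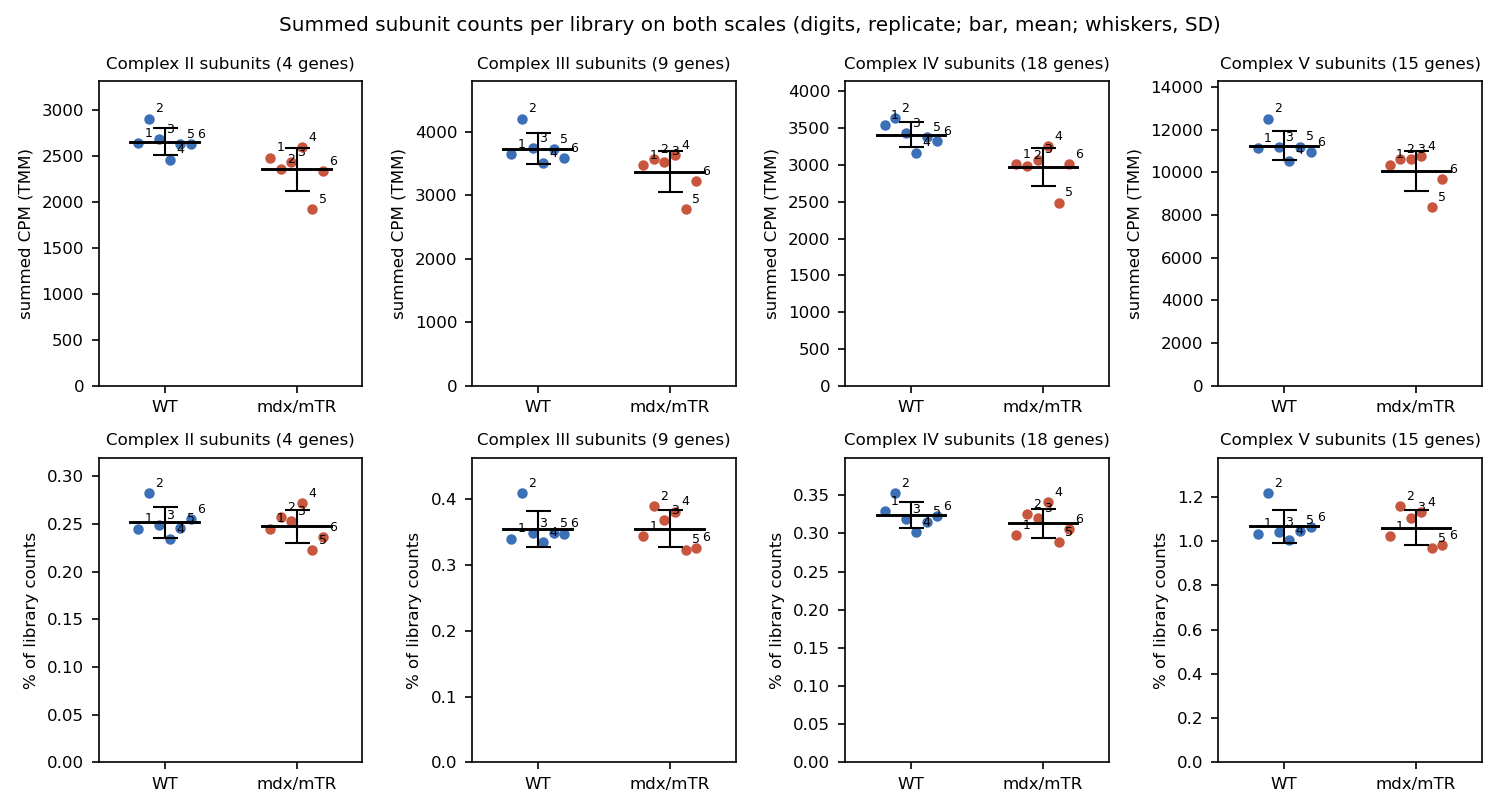
Counts summed over the subunits of each complex in each mouse, as CPM with TMM scaling (top row) and as percent of library counts (bottom row), with replicate numbers, group means (bars) and SD (whiskers), n = 6 per group. The mdx/mTR means are 87.1% to 90.2% of WT in the top row and 96.8% to 100.2% in the bottom row.

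The scale on which libraries are set equal moved every gene together. With library totals alone the all-gene median of the log2 fold change moved up by 0.16, and the median of the 59 genes went from -0.14 to 0.01. Of the 20 lower genes 6 were lower again: Sdhaf3, Cycs, Cox10, Cox6a2, Atp5sl and Atp5s. All 4 higher genes were higher again, with 15 in all; under these totals 11.2% of all genes were lower and 40.2% higher. Scaling by relative log expression gave 20 lower and 3 higher with 0 signs turned, and upper quartile scaling gave 12 lower and 5 higher with 9 signs turned, none among the 24. Of all 13937 genes tested, relative log expression gave 3313 lower and 3429 higher, and upper quartile scaling 2699 and 3955. Sdhaf3, Cycs, Cox10, Cox6a2, Cox6a1, Cox8a, Atp5sl and Atp5s passed in each of the 24 alternatives, and no gene of the 24 changed sign in any of them.

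**Figure D5:**
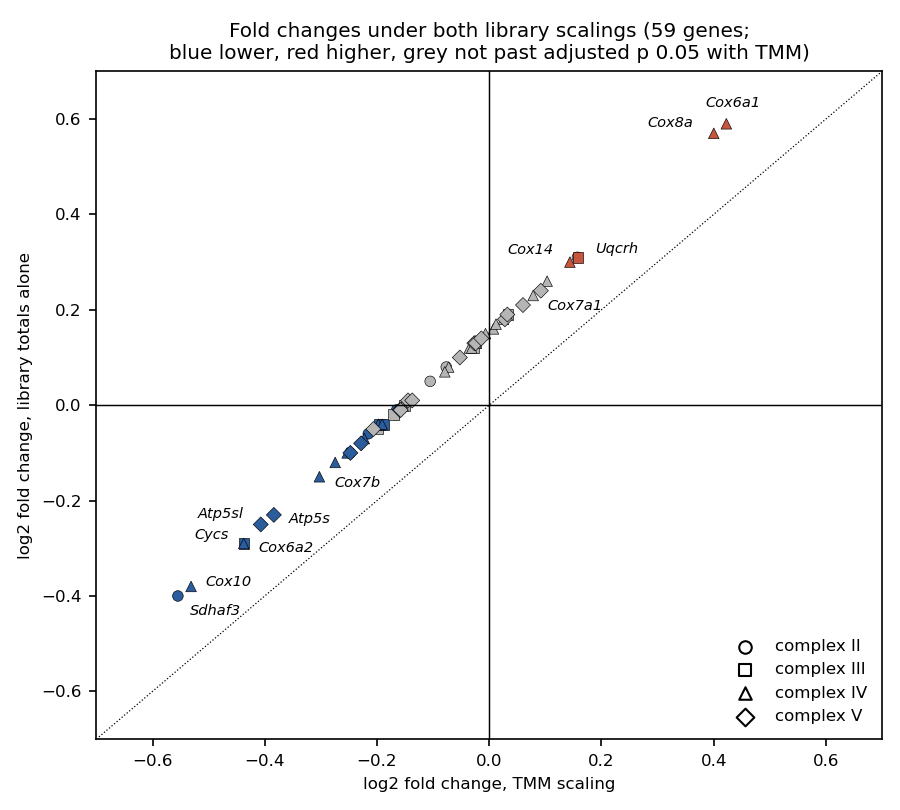
Log2 fold change of each of the 59 genes with TMM scaling (horizontal axis) and with library totals alone (vertical axis); symbols mark the complex, colours the call with TMM, and the dotted line equal values. Points lie above the line, so that the median moves from -0.14 to 0.01. Past the threshold 6 genes stay lower and 15 become or stay higher, beside 11.2% and 40.2% of all genes.

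As a description across the 59 genes, which share the same libraries, log2 fold change and log2 transcript length had a Pearson r of -0.454 and a Spearman rho of -0.454. With GC content the values were 0.313 and 0.219, with the WT level -0.172 and -0.262, and with shared sequence 0.09 and 0.083. Correcting each library for GC content and length gave 25 lower and 3 higher genes with a median of -0.17. Under that correction 3256 of all 13937 genes tested were lower and 3537 higher. A total of 12 genes share at least 30% of their 50-base stretches with other genes, and 4 of them are among the 24. Among all genes tested 48.3% passed. Of the 23 tested genes that share no such stretch, 5 were lower and 2 higher. Neither count was above the all-gene shares of 23.4% lower and 25.0% higher.

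Other genes of the pathway were counted in lists beside these genes. Of 36 assembly and associated factors that the symbol rule does not take, 35 were listed and 32 tested, of which 16 were lower and 1 higher, with a median log2 fold change of -0.16. The smallest p-values were those of Uqcc1, a complex III assembly factor (-0.55 ± 0.06, edgeR adjusted p = 1.2e-05), and Lrpprc, which stabilises mitochondrial messenger RNA (-0.43 ± 0.05, edgeR adjusted p = 2.1e-05). Uqcc1 had 178 to 195 CPM in WT against 107 to 138 CPM in mdx/mTR. Atpif1, the inhibitor of ATP hydrolysis by complex V, was the 1 higher gene and is named after its values were seen. It ran from 9.56 to 13.4 CPM in WT against 15.3 to 18.1 CPM in mdx/mTR, without overlap (0.64 ± 0.08, edgeR adjusted p = 2.7e-05).

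Complex I subunits showed 16 lower and 1 higher of 36 tested, with a median of -0.15; Ndufa12 (-0.32) and Ndufa8 (-0.31) had the smallest p-values, and the 1 higher gene was Ndufa13 (0.19), named after its values were seen. Of 77 mitochondrial ribosomal proteins 27 were lower and 0 higher, with a median of -0.10, led by Mrps18b (-0.45) and Mrpl16 (-0.35). In the citric acid cycle 8 of 13 enzymes were lower and 0 higher, with a median of -0.21. Suclg2 (-0.59) and Suclg1 (-0.31), subunits of succinyl-CoA ligase, had the smallest p-values there. These lists are read against the same background of 23.4% lower and 25.0% higher. With library totals alone the assembly and associated factors had 7 lower and 4 higher, and complex I subunits 6 and 5. Ribosomal proteins had 7 lower and 14 higher, and citric acid cycle enzymes 3 and 0. Under those totals 11.2% of all genes were lower and 40.2% higher.

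The authors' deposited table, made with their own fit, gave 27 of the 59 genes an adjusted p below 0.05, 24 lower and 3 higher. The share of all genes passing in the authors' deposited table was not counted here. A DESeq2 run on the same counts gave 3458 lower and 3777 higher of 17424 genes. The authors' deposited table and the edgeR test shared 23 of the 27 genes. Sdha, Cyc1, Uqcrc1 and Atp5g1 passed only in the authors' deposited table, and Cox14 passed only in edgeR (authors' deposited table, adjusted p = 0.0653).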

How the data were processed

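Messenger RNA of the tibialis anterior was sequenced from 12 mice, 6 WT and 6 mdx/mTR. The authors deposited counts, as whole numbers by gene symbol, and a table of their comparison, which holds, per the file headers, a mean normalised signal, a log2 fold change, a test score and p-values. The submitters' processing notes name FastQC, STAR, DESeq2 and build mm10. The counter, annotation and strand handling are not given in the sources used here. A total of 0 columns were left unmatched to a sample.

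The deposited counts went into edgeR 4.0.16 (R 4.3.3) unchanged: filterByExpr (13937 genes, 99.97% of counts), TMM, quasi-likelihood test of group, Benjamini-Hochberg adjustment over all genes tested, threshold 0.05. The test was tried on simulated counts. The symbols, lists and tests were chosen with earlier results of these data known. Named genes are the 3 largest changes per complex or class past the threshold, the 8 isoform genes, a fixed list (Sdha, Sdhb, Cyc1, Cycs, Uqcrc1, Cox4i1, Cox5a, Atp5a1, Atp5b) and the 2 smallest p-values of each pathway list; others were chosen after their values were seen. Isoform ratios are log2 of counts plus 0.5, tested in scipy 1.17.1. Every marker list was also counted: endothelial markers were lower in 2 of 4, Schwann in 3 of 3, pericyte and smooth muscle in 2 of 3 with 1 higher, and adipocyte in 0 of 3 with 0 higher; no T cell marker was tested, and Alas2 of the red cell list did not pass while the 4 globin genes had 0 counts.

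Replicate pairs differed by more than sampling noise. Transcript lengths and shared sequence came from GENCODE M21, and positions and promoters from RefSeq GRCm38.p6; motifs were searched exactly on both strands and were chosen after the sequences were seen. Alternatives were other filters, scalings, DESeq2 1.42.0, limma-voom (limma 3.58.1) plain or with sample weights, a replicate block, a correction for GC content and length, each mouse left out and a stricter threshold; leaving out WT replicate 2 and mdx/mTR replicate 5 together was added after seeing the data.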

Additional observations from a re-analysis of the deposited data

Results flagged for a closer look

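Of 66 sets of 6 values tested for a library far from the others of its group, 9 exceeded Dixon's 95% limit for the gap divided by the range, where about 3.3 would by chance. Of these, 6 concern WT replicate 2 as the highest library. Its level was 779.1 CPM for Uqcrc2 (others 657.5 to 693.5), 299.5 for Cox7a1 (246.3 to 263.8), 1256 for Uqcrc1 (1023 to 1104) and 4639 for Atp5b (3946 to 4086). Summed subunits stood at 4211 CPM for complex III (others 3512 to 3748) and 12520 CPM for complex V (10550 to 11210).

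The other 3 concern mdx/mTR replicate 5 as the lowest library. It had 353.2 CPM for Cox5a (others 426.6 to 447.3), a Cox7a1 to Cox7a2 log2 ratio of 1.033 (1.232 to 1.29) and 2489 CPM for the summed complex IV subunits (2991 to 3257). The sets share libraries and genes and are not independent.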

How the results depend on the processing

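Against 24 genes past the threshold, 20 lower and 4 higher, the count fell to 12 at an adjusted p of 0.01, 10 lower and 2 higher. The share of all genes at that threshold is not given here. Lower genes numbered 12 with a stricter filter on low counts, 12 with upper quartile scaling, 6 with library totals alone and 12 without WT replicate 2 and mdx/mTR replicate 5. Higher genes numbered 2 with no filter, 15 with library totals alone, 2 with the replicate block and 8 without those 2 libraries. Among all genes tested, the stricter filter gave 2286 lower and 2468 higher of 9493, and upper quartile scaling 2699 and 3955 of 13937. Library totals alone gave 1560 lower and 5596 higher of 13937, and leaving out those 2 libraries 3189 and 3266 of 13928. No filter gave 3159 lower and 3668 higher of 19290, and the replicate block 3112 and 3308 of 13937. The median of the 59 genes was 0.01 with library totals and -0.05 without the 2 libraries. Leaving out 1 mouse at a time gave 16 to 25 genes in all, 13 to 23 lower (13 without WT replicate 2 and without mdx/mTR replicate 6) and 2 to 5 higher. Of all genes tested, 3254 of 14044 were lower without WT replicate 2, and 3112 of 14003 without mdx/mTR replicate 6. Assembly and associated factors numbered 11 with library totals, 7 lower and 4 higher against 16 and 1. Complex I subunits numbered 11 with the stricter filter, 11 with upper quartile scaling, 11 with library totals (6 lower and 5 higher) and 7 at 0.01. Ribosomal proteins numbered 17, 16 and 15 with the stricter filter, upper quartile scaling and at 0.01. Citric acid cycle enzymes numbered 3 with library totals and 5 at 0.01.

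Values that turned sign were those of Cox7a2 (-0.001601 with DESeq2, -0.04 with the GC and length correction, -0.05 with the replicate block added, and -0.03 to 0.06 when mice were left out), Cox8b (0.07 with library totals) and Cox4i2 (0.003192 with library totals). None of these passed the threshold in the main test. The Cox7a1 to Cox7a2 difference was 0.03 to 0.10 with 1 mouse left out and 0.13 (exact permutation adjusted p = 0.0423) without WT replicate 2 and mdx/mTR replicate 5. The cause of each change was not tested.

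Whether the replicate numbers pair the mice was not settled by these values. Correlations of same-numbered deviations ran from -0.137 to 0.319, over 0.1 in 2 of 6. Of the 12 libraries 4 correlated best with their own number. With the replicate block 22 genes passed, beside 3112 lower and 3308 higher of all 13937 genes tested. Under that block the Cox6a2 to Cox6a1 and Cox8b to Cox8a differences stayed at -0.84 and -0.47. Their exact permutation adjusted p was 0.0625, in a design whose smallest raw p is 0.03125. Depth limits only the 3 genes at or near the floor.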
